A study of Mus musculus with 3 samples.

Results

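The 37 genes described here encode the 19 Wnt ligands, 12 receptors (the 10 Frizzled proteins and the coreceptors Lrp5 and Lrp6) and 6 intracellular effectors (the scaffolds Axin1 and Axin2 and the DNA-binding factors Tcf7, Tcf7l1, Tcf7l2 and Lef1). They were taken by symbol from a list of the pathway's genes, all 37 were found among the 21627 protein-coding genes of the RefSeq table used, and the rule itself uses no measured value, although the genes were chosen with earlier results of these data known. The mark measured was histone H3 monomethylated at lysine 4 (H3K4me1), which lies over enhancers and around gene starts, by chromatin immunoprecipitation and sequencing (ChIP-seq) in adipocytes; the titles name H3K4me1 and the antibody label H3K4me. All mice were males of strain C57BL/6J. One library was made from mice whose adipocytes lack LONP1, the Lon protease of the mitochondrial matrix (AKO, adipocyte-specific knockout). The other was made from their wild-type control mice (WT). Both were set against the same input library without antibody, whose genotype label is wild type and whose title calls it the control of the AKO library. The Cre driver, the fat depot, the age and the number of mice behind each library are not given in the sources used here. With 1 library per genotype there is no spread between replicates, so no p-value is given and every difference is one between these 2 libraries.

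Wnt proteins are secreted lipid-modified ligands that bind a Frizzled receptor together with Lrp5 or Lrp6. In the canonical branch this stops a complex built on Axin from having beta-catenin destroyed, and beta-catenin then acts with TCF/LEF factors on target genes. Axin2 is itself a target gene and a negative feedback regulator of the pathway. In adipose tissue, canonical Wnt signalling, with Wnt10b as its best known ligand, is known as a brake on the differentiation of fat cell precursors.

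Most of these genes with a listed start have a start region rich in CpG, 21 of 26 by the cut-offs given further below. Among the sequences printed here Wnt8b is CpG-poor. Wnt10b, with a ratio of observed to expected CpG of 0.559, falls just short of the cut-off of 0.6. Each line gives the 250 bases before the start of transcription on the gene's strand, from the RefSeq promoter table of GRCm38.p6 (mm10), and capitals mark each CG. Wnt3, Wnt10b and Fzd10 are shown because H3K4me1 peaks lay over their starts in both libraries. The Wnt8b, Axin2 and Tcf7l2 starts are shown because no peak lay over them in either.
Wnt3 (chr11:103773925-103774174, plus strand): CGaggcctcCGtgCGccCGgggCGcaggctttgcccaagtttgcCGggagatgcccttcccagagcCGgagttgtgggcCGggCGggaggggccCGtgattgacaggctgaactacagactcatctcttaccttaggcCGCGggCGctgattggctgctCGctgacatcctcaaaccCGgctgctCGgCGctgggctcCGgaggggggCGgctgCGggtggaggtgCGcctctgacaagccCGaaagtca
Wnt10b (chr15:98778151-98778400, minus strand): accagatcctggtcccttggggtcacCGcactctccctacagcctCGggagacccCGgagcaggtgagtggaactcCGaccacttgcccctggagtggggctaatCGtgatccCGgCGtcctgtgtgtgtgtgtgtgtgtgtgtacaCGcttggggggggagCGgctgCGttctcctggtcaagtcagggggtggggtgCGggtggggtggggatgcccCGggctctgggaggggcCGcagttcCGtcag
Fzd10 (chr5:128600856-128601105, plus strand): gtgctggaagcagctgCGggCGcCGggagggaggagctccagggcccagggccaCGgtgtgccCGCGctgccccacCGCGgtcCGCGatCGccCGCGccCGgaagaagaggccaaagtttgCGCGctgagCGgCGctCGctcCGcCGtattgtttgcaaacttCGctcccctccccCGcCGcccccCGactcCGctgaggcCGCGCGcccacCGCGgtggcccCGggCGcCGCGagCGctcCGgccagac
Wnt8b (chr19:44493222-44493471, plus strand): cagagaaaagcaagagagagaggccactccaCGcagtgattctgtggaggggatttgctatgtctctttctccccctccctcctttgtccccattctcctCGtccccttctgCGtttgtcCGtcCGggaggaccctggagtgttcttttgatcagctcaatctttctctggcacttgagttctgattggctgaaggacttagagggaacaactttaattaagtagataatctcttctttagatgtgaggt
Axin2 (chr11:108920099-108920348, plus strand): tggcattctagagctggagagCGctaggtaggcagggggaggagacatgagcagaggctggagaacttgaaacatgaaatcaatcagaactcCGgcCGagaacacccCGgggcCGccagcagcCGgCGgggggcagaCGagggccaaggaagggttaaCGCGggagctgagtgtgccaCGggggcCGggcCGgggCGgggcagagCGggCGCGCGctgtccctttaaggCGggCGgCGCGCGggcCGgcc
Tcf7l2 (chr19:55741560-55741809, plus strand, the more upstream of 2 listed starts): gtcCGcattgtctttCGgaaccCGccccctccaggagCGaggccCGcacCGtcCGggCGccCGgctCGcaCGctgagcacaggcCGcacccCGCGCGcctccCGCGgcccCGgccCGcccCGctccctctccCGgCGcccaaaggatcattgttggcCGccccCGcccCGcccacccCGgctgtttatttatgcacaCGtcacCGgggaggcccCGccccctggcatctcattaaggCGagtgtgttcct
The number of CG pairs in these 250 bases was 22 at Wnt3, 14 at Wnt10b, 37 at Fzd10, 5 at Wnt8b, 24 at Axin2 and 30 at Tcf7l2. CpG-rich starts were thus found both with and without a peak.

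Values below are the kb covered by the authors' peaks within the gene body and 10 kb on each side, and the number of fragments stacked at a peak's summit. The AKO library held 14733950 tags after removal of duplicates and 62361 peaks, and the WT library 15015805 tags and 72040 peaks. The AKO to WT ratio was 0.981 for tags and 0.736 for the covered length of the genome, so less covered length in AKO is also the background against which the Wnt genes have to be read. The smallest called summit held 10 fragments in both libraries, and sites with fewer were not detectable at this depth. Of the 8 adipocyte markers checked (such as Adipoq, Plin1 and Pparg), all had a peak in at least 1 library, and they covered 18.4 kb in AKO and 29.3 kb in WT. Markers of other cells were covered too. The 8 progenitor and fibroblast markers covered 40.5 kb in AKO and 58.4 kb in WT, and their AKO to WT ratio was 0.694. Among them Cd34 and Dcn had more length in AKO. The 6 endothelial markers covered 9.76 kb in AKO and 19.8 kb in WT, a ratio of 0.493, although Emcn had more length in AKO. The 6 macrophage markers covered 10.6 kb in AKO and 17.7 kb in WT, with Adgre1 and Ptprc at 0 in both, and the 6 skeletal muscle markers 6.42 kb in AKO and 15.8 kb in WT, with Myh4 at 0 in both. What part such cells have in the values below was not tested, and fewer marked cells and less mark per cell cannot be told apart.

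The Wnt genes as a group carried less H3K4me1 in AKO than in WT. All 37 had less covered length in AKO, against 78.4% of the 14920 protein-coding genes with a peak in either library and 21.6% that had more. Among the 27 members with a mean of at least 2 kb over both libraries the count was also 27 of 27, against 87.8% of all genes with such a mean. Summed over the windows, with overlapping windows counted once, the peaks covered 165 kb in AKO and 262 kb in WT, and the AKO to WT ratio was 0.630, where all protein-coding genes together gave 0.740. The summed ratio was 0.601 for the ligands (55.1 kb in AKO, 91.6 kb in WT), 0.662 for the receptors (32.8 kb in AKO, 49.6 kb in WT) and 0.640 for the effectors (77.2 kb in AKO, 121 kb in WT). When only the strongest peaks of both libraries up to an equal covered length were used, the effector ratio turned round to 1.17, the ligand ratio was 0.619, and 21 of 30 members with a peak had less length in AKO. Fzd4 had more length in AKO with equal numbers of peaks, with joined peaks, with 25 kb on each side and with peaks given to the nearest gene, and Axin1 with gene bodies alone and with the nearest gene. The median difference was −1.68 kb for the members and −0.176 kb over all protein-coding genes, most of which have little or no coverage. Among genes with a mean of at least 2 kb it was −2.05 kb for the 27 members and −1.75 kb for all.

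**Figure D1:**
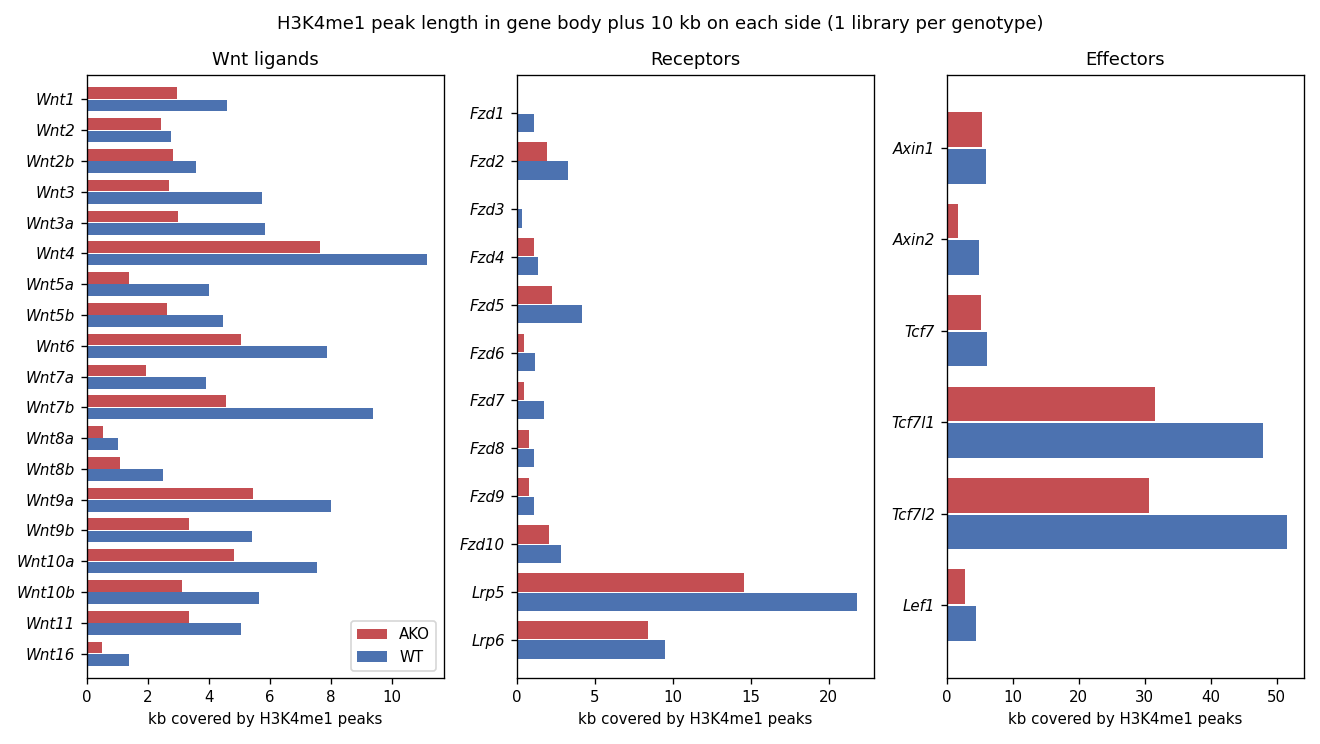
Kilobases covered by H3K4me1 peaks (horizontal axis, a separate scale in each panel) for every ligand, receptor and effector gene, with the AKO bar above the WT bar of 1 library each. The AKO bar is the shorter one in all 37 genes, and Tcf7l1 and Tcf7l2 are far longer than the rest in both libraries.

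A rule of size was used in place of a test: genes whose WT length exceeded the AKO length by a ratio above 2 and by no less than 2 kb were called lower in AKO, and the mirror image higher. It called 4 members lower (Wnt3, Wnt5a, Wnt7b and Axin2) and none higher. Over all protein-coding genes it called 5.35% lower and 0.227% higher, and 13.6% lower among those with a mean of at least 2 kb. As 4 of 27 members with such a mean, the count is close to that share and is no result about Wnt genes. Just inside the rule was Wnt7b with a ratio of 2.06, and just outside it Wnt7a with a ratio of 2.02 and a difference of −1.98 kb. Of the 4, Axin2 alone met the rule in each of the 9 alternative settings tried.

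The Wnt ligand genes lie in 4 neighbouring pairs among these 19, and the windows of Wnt1 and Wnt10b, Wnt3 and Wnt9b, Wnt3a and Wnt9a, and Wnt6 and Wnt10a overlap, so paired genes share part of their values. Wnt10b (chromosome 15, 98770712 to 98778206), the ligand that holds back adipogenesis, had 3.12 kb in AKO and 5.64 kb in WT. Its neighbour Wnt1 (chromosome 15, 98789857 to 98793830), a canonical ligand of brain development, had 2.96 kb in AKO and 4.60 kb in WT, and the pair share 0.369 kb of AKO and 0.985 kb of WT peaks. The peak over the Wnt10b start rose to 18 fragments in AKO and 39 in WT, and the one over the Wnt1 start to 27 fragments in AKO and 44 in WT. Both ligand starts were therefore marked in both libraries, with lower summits in AKO.

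Wnt6 (chromosome 1, 74754342 to 74785322) and Wnt10a (chromosome 1, 74792019 to 74804176), also known to restrain fat cell formation, form the second pair. Wnt6 had 5.04 kb in AKO and 7.86 kb in WT, and Wnt10a 4.82 kb in AKO and 7.54 kb in WT. All 7 AKO peaks in the Wnt10a window and 6 of its 7 WT peaks overlapped a peak of the other library. The loss of length at this pair thus came mostly from narrower peaks and not from missing ones. Around the Wnt6 start 1 merged region covered 1.25 kb in AKO and 2.40 kb in WT, with 31 and 48 fragments at its summit in AKO and WT.

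Wnt3 (chromosome 11, 103774175 to 103818021) met the rule of size, with 2.68 kb in AKO and 5.73 kb in WT. The region over its start covered 1.40 kb in AKO and 2.47 kb in WT, and its summit held 26 fragments in AKO (exact Poisson 95% interval 17.0 to 38.1) and 51 in WT (38.0 to 67.1). These intervals cover counting error only. All 3 AKO peaks overlapped a WT peak, while 3 of the 6 WT peaks had no AKO partner and held 12 to 19 fragments. The Wnt9b window (chromosome 11, 103727362 to 103775272) takes in the Wnt3 start and had 3.36 kb in AKO and 5.41 kb in WT, of which 1.79 kb in AKO and 3.69 kb in WT are shared with Wnt3. The peak over the start of Wnt9b itself held 29 fragments in AKO and 41 in WT.

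Wnt3a (chromosome 11, 59248036 to 59290751), the ligand most used to activate the canonical branch in culture, had 3.0 kb in AKO and 5.82 kb in WT. Nearly all of its AKO length lay in 1 region over the start, which covered 2.61 kb in AKO and 3.89 kb in WT and held 31 fragments in AKO (21.1 to 44.0) and 59 in WT (44.9 to 76.1). This is 1 of 3 members, with Wnt8a and Wnt8b, whose Poisson intervals at the highest summit did not overlap. For how many of all genes this holds was not counted, so it is no result about Wnt genes. The Wnt3a neighbour Wnt9a (chromosome 11, 59306849 to 59333552) had 5.44 kb in AKO and 8.02 kb in WT. No peak lay over the Wnt9a start itself. The region just downstream of it was lower in AKO (29 fragments, against 49 in WT), whereas a region 7.06 kb downstream was the higher one in AKO (35 fragments, against 29 in WT).

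Wnt5a (chromosome 14, 28504543 to 28527448), the main ligand of the non-canonical branch and a factor of inflamed fat tissue, met the rule of size with 1.39 kb in AKO and 4.02 kb in WT. Its highest summit held 19 fragments in AKO and 25 in WT, among the lowest of the ligands. Of its 5 WT peaks, 3 had no AKO partner, and those 3 held 15 to 21 fragments. Wnt5b (chromosome 6, 119432531 to 119544824), its close relative, had 2.63 kb in AKO and 4.45 kb in WT with 7 peaks in either library. The loss was spread over shorter peaks there, and its most upstream start was covered for 0 of 300 bases in AKO and for 300 in WT.

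Wnt7b (chromosome 15, 85535437 to 85581821), the third ligand that met the rule, had 4.56 kb in AKO and 9.38 kb in WT. The region at its higher-coordinate end covered 2.11 kb in AKO and 2.83 kb in WT, with 37 and 59 fragments in AKO and WT, and the next one covered 1.23 kb in AKO and 2.37 kb in WT. All 4 AKO peaks had a WT partner, and 2 of the 6 WT peaks had none in AKO. Wnt7a (chromosome 6, 91363981 to 91411353), its paralogue, had 1.94 kb in AKO and 3.92 kb in WT. Over the Wnt7a start the width hardly differed (1.02 kb in AKO, 1.08 kb in WT) while the summit held 33 fragments in AKO and 44 in WT.

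Wnt4 (chromosome 4, 137277635 to 137299501), a ligand of kidney and gonad development, had the longest coverage of the ligands, 7.65 kb in AKO and 11.1 kb in WT. Its start region held 25 fragments in AKO and 52 in WT, and 6 of its 9 WT peaks had an AKO partner. Wnt11 (chromosome 7, 98835084 to 98854747), a non-canonical ligand, had 3.36 kb in AKO and 5.04 kb in WT, and the summit over its first start held 36 fragments in AKO and 44 in WT. Of the 19 ligands Wnt11 had the highest-summit ratio nearest to 1. Wnt2 (chromosome 6, 17985474 to 18032772) had 2.43 kb in AKO and 2.77 kb in WT, the ratio nearest to 1 of the ligands, and Wnt2b (chromosome 3, 104944805 to 104961709) had 2.84 kb in AKO and 3.58 kb in WT. Yet the regions over these 2 starts had lower summits in AKO. They held 25 fragments in AKO and 38 in WT at Wnt2, and 19 in AKO and 36 in WT at Wnt2b. The Wnt2 region held 2 AKO peaks, and the one over the start itself had 21 fragments.

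The remaining ligands carried little mark. Wnt8b (chromosome 19, 44493472 to 44514273) had 1.09 kb in AKO and 2.51 kb in WT, and its highest summit, 17.8 kb downstream of the start, held 22 fragments in AKO (13.8 to 33.3) and 54 in WT (40.6 to 70.5). At Wnt8a (chromosome 18, 34542327 to 34548061) a single region covered 0.550 kb in AKO and 1.02 kb in WT, with 18 fragments in AKO (10.7 to 28.4) and 41 in WT (29.4 to 55.6). These 2 genes had the lowest AKO to WT ratios of summit height among the ligands. Wnt16 (chromosome 6, 22288178 to 22298522) had no region in common: its 1 WT peak of 1.40 kb lay over the start with 25 fragments, and its 1 AKO peak of 0.512 kb lay at −8.27 kb from the start with 16.

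As a group the Frizzled genes were less covered than the ligands, the coreceptors or the effectors. Peaks covered 2.93% of their windows in AKO and 5.44% in WT, against 2.90% in AKO and 3.92% in WT over all protein-coding genes. Most of the Frizzled genes are short, and 7 of the 10 had under 2 kb in both libraries. Over all 21627 protein-coding genes, only 8214 reached 2 kb in WT. Summed over the 10, the peaks covered 9.86 kb in AKO and 18.3 kb in WT, a ratio of 0.540. Fzd5 (chromosome 1, 64730558 to 64737750), known for its part in intestinal Paneth cells, had the most, with 2.26 kb in AKO and 4.17 kb in WT in 4 regions that were all marked in both libraries, and with 31 fragments in AKO and 38 in WT at the highest summit. Fzd2 (chromosome 11, 102604431 to 102608058) had 1.94 kb in AKO and 3.29 kb in WT, all of it outside the gene body, with nearly equal highest summits of 26 fragments in AKO and 28 in WT. Fzd10 (chromosome 5, 128601106 to 128604093) had 1 peak over its start in each library, of 2.05 kb and 30 fragments in AKO and of 2.85 kb and 42 fragments in WT.

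Fzd9 (chromosome 5, 135248938 to 135251047) and Fzd8 (chromosome 18, 9212856 to 9216201) also had 1 shared region each. At Fzd9 it covered 0.793 kb in AKO and 1.12 kb in WT, with 24 fragments in AKO and 41 in WT, and at Fzd8 0.775 kb in AKO and 1.13 kb in WT, with 21 fragments in AKO and 33 in WT. The other 5 Frizzled genes, Fzd1, Fzd3, Fzd4, Fzd6 and Fzd7, had no region marked in both libraries. Of all merged regions in the genome, 48.6% were marked in both. For how many of all genes no region was shared was not counted, so this is no result about Frizzled genes. The highest summits of these 5 genes held 17 fragments in AKO where a peak was called and 18 to 23 in WT. Fzd1 and Fzd3 had no AKO peak at all. With no region in common, summit heights at these 5 receptors could not be compared site by site. Fzd4, the norrin receptor of retinal vessels, had 1.14 kb in AKO from 2 peaks of 15 and 17 fragments downstream of the gene and 1.39 kb in WT from 4 other peaks of 14 to 23 fragments.

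The coreceptor genes are long and broadly marked. Lrp5 (chromosome 19, 3584825 to 3686585), whose human mutations are known to alter bone mass, had 14.6 kb in AKO and 21.8 kb in WT. Its 10 regions marked in both libraries held all 17 AKO peaks, and 4 further regions were marked in WT only. The highest Lrp5 summit held 38 fragments in AKO and 44 in WT, in different regions of the gene. Lrp6 (chromosome 6, 134446476 to 134566913), the more essential of the 2 in mouse development, had 8.39 kb in AKO and 9.52 kb in WT, a ratio of 0.881. It was the only member with the higher top summit in AKO, by 31 fragments against 30 in WT, a difference well inside counting error. Of its 20 merged regions, 9 were marked in both libraries, 4 in AKO only and 7 in WT only.

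Among the effectors, Axin2 (chromosome 11, 108917828 to 108950783), the feedback inhibitor, had the lowest AKO to WT ratio (0.341), with 1.65 kb in AKO and 4.83 kb in WT. Its main region, centred 1.61 kb downstream of the start, covered 0.850 kb in AKO and 1.90 kb in WT, with 27 fragments in AKO (17.8 to 39.3) and 40 in WT (28.6 to 54.5). A region 27.9 kb downstream held 15 fragments in AKO and 32 in WT, and 2 regions of 27 and 24 fragments were marked in WT only. So at Axin2 sites went missing as well as narrowing, and no region was marked in AKO only. No other protein-coding gene lies in its window. Axin1 (chromosome 17, 26131217 to 26195811), the scaffold of the destruction complex, contrasted with it, with 5.33 kb in AKO and 5.90 kb in WT and a ratio of 0.905, the highest of the 37. The Axin1 window holds 5 other protein-coding genes, and within the gene body alone Axin1 had 1.02 kb more in AKO.

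Tcf7l2 (chromosome 19, 55741797 to 55933659), the TCF factor tied to type 2 diabetes in human genetics, had the longest coverage of all members, 30.6 kb in AKO and 51.5 kb in WT, the ratio being 0.594. Its 63 merged regions were spread along the gene, 25 marked in WT only, 3 in AKO only and 35 in both. Within 2 kb of its first start no peak was called in either library. The 4 widest regions marked in WT only lay 39.9, 41.3, 42.9 and 61.6 kb downstream of that start, covered 1.17 to 1.40 kb and held 23, 15, 19 and 20 fragments. They flank the widest shared region, centred 49.2 kb downstream, which covered 3.90 kb in AKO and 4.96 kb in WT with 25 fragments in AKO and 28 in WT. The highest Tcf7l2 summit held 35 fragments in AKO and 39 in WT, in different regions of the gene. The region of the AKO summit held 33 fragments in WT, and the region of the WT summit held 33 in AKO. Height thus differed little at these sites, while length and number of sites over the gene differed more.

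Tcf7l1 (chromosome 6, 72626371 to 72789045), a TCF factor that mostly represses its targets, had the same kind of layout. It had 31.6 kb in AKO and 47.9 kb in WT in 54 merged regions, 19 marked in WT only, 1 in AKO only and 34 in both. No peak lay within 2 kb of its start, and its regions ran from 6.86 to 153 kb downstream. Tcf7 (chromosome 11, 52246527 to 52283383), also a marker of naive T cells, had 5.21 kb in AKO and 6.09 kb in WT, and 2 regions at its 3′ side were marked in AKO only, the higher with 24 fragments. Lef1 (chromosome 3, 131110297 to 131224357) had 2.78 kb in AKO and 4.50 kb in WT, most of it over its first starts, where the summit held 30 fragments in AKO and 47 in WT. Tcf7 and Lef1, unlike the 2 longer genes, had a peak at the start in both libraries.

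**Figure D2:**
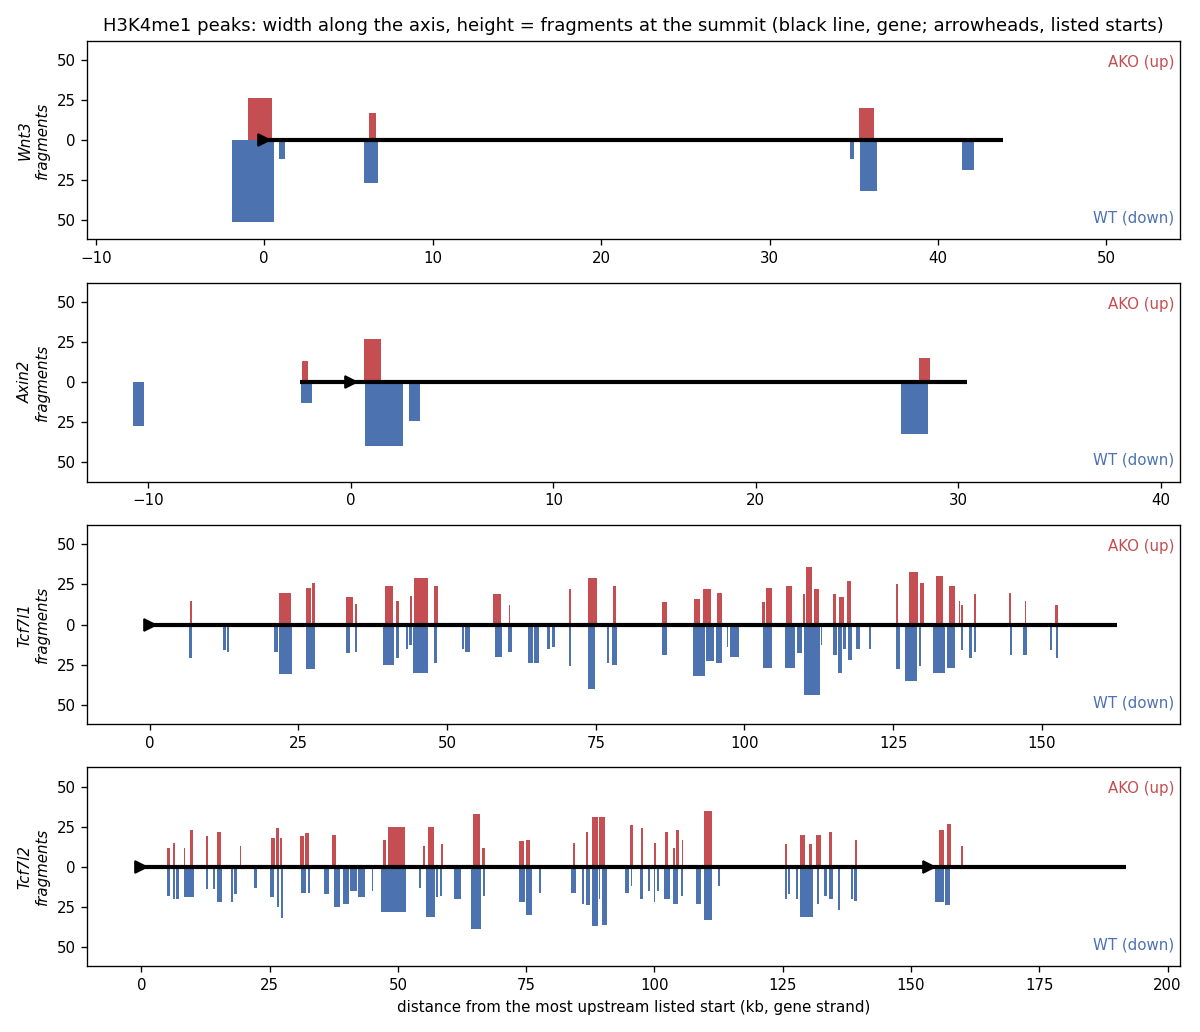
Peaks of AKO (upward) and WT (downward) along Wnt3, Axin2, Tcf7l1 and Tcf7l2. The horizontal axis is the distance in kb from the most upstream listed start, the bar width is the peak, and the bar height is the number of fragments at its summit. Wnt3 carries its tallest peak over the start, whereas Tcf7l1 and Tcf7l2 carry many peaks along the gene and none at the first start.

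Region by region, most sites of the Wnt genes were marked in both libraries. The windows held 291 merged regions, of which 169 were marked in both libraries (58.1%, Wilson 95% interval 52.3 to 63.6), against 48.6% of all 84384 merged regions in the genome. Regions marked in WT only made up 34.7% of the member regions and 33.8% of all regions. Regions marked in AKO only made up 7.22% of the member regions and 17.6% of all. The median summit of the member regions marked in WT only held 17 fragments and the highest 29, below the highest WT summit of most ligands.

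The sites marked in both libraries were lower in AKO. The AKO summit was the lower one in 136 of the 169 shared member regions (80.5%), against 71.8% of all shared regions, and the median summit held 21 fragments in AKO and 26 in WT. The share was 91.4% for the 58 shared regions of the ligands, 82.1% for the 28 of the receptors and 72.3% for the 83 of the effectors. At the highest summit of each gene, 34 of the 35 members with a peak in both libraries were lower in AKO. This held for 83.4% of all such genes and 90.4% of those with a mean of at least 2 kb. The highest AKO and WT summits of a gene were not always at the same site, and Wnt16, Fzd4, Fzd6 and Fzd7 had no region in common. All 19 ligands were among the 34, though not as separate sites. In WT, Wnt3 and Wnt9b shared 1 highest summit of 51 fragments, and Wnt6 and Wnt10a shared another of 51. The highest ligand summits ranged from 16 to 37 fragments in AKO and from 25 to 59 in WT, with medians of 27 in AKO and 44 in WT.

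**Figure D3:**
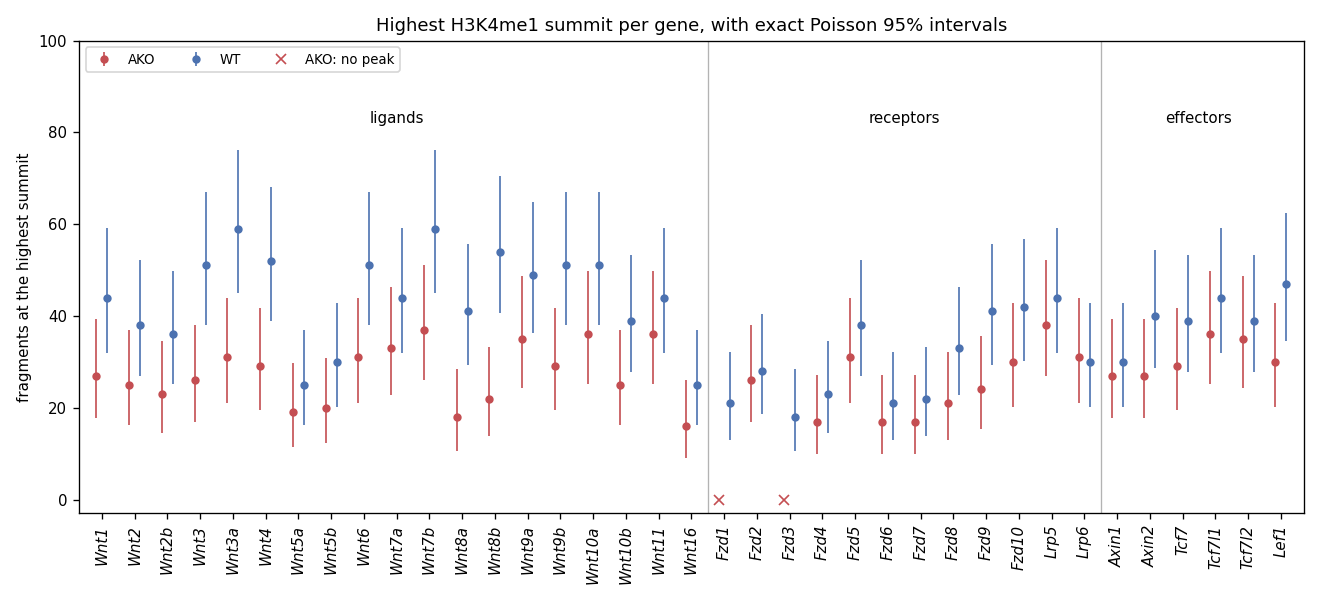
Number of fragments at the highest H3K4me1 summit of each gene (vertical axis), with the AKO point left of the WT point, exact Poisson 95% intervals, and crosses where no AKO peak was called. The ligand summits reach 37 fragments in AKO and 59 in WT, and Lrp6 is the single gene with the higher AKO point.

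High regions differed more than low ones over the whole genome, so the ligand values were set beside regions of like height. All shared regions were divided into 5 equal classes by the mean summit of both libraries, from class 1 (lowest) to class 5 (highest). The ligands had 23 of their 58 shared regions in class 5, or 39.7%. There the median AKO to WT ratio of summit fragments was 0.614 for the ligands, with medians of 27 fragments in AKO and 44 in WT, and 0.746 for all 8205 regions of that class. In class 4 it was 0.645 for 12 ligand regions and 0.80 for all, and in class 3 it was 0.739 for 11 ligand regions and 0.857 for all. In classes 1 and 2 the ligands had only 7 and 5 regions, with ratios of 0.929 and 0.889 against 0.938 and 0.895 for all. The effector ratios of the upper classes were above those of all regions, at 0.842 for 14 regions of class 5 and 0.889 for 30 of class 4. Of the 83 shared effector regions in all classes, 34 lay at Tcf7l1 and 35 at Tcf7l2. The effector ratios thus describe mostly these long genes and not each effector. These ratios describe 1 pair of libraries and neighbouring regions of a gene are not independent.

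**Figure D4:**
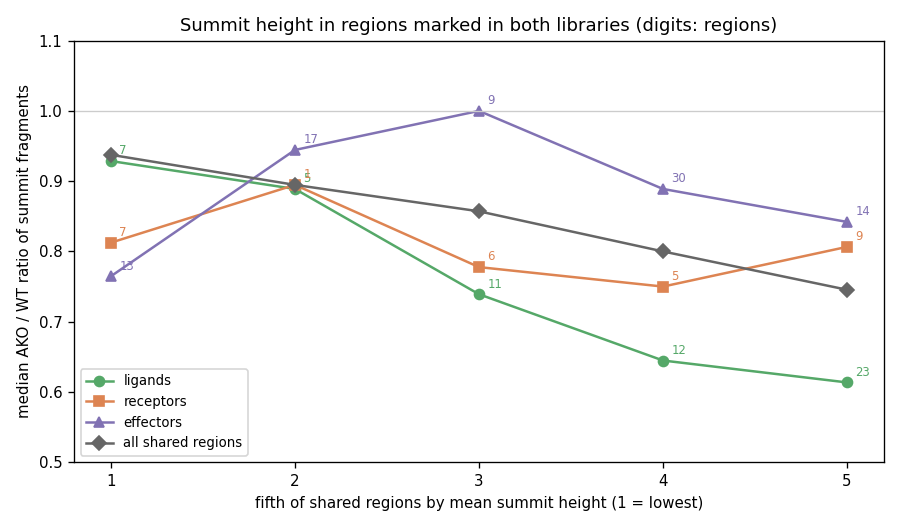
Median AKO to WT ratio of summit fragments (vertical axis, not starting at 0) in regions marked in both libraries, in 5 equal classes of mean height (horizontal axis), with the number of regions beside each point of the ligands, receptors and effectors. Ligand regions fall below the line of all shared regions in classes 3 to 5, down to 0.614, and effector regions of classes 4 and 5 lie above it. Most effector regions are those of Tcf7l1 and Tcf7l2.

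The next question was where along the genes the mark lay. The promoter table held 26 of the 37 members with 34 listed starts (none for Wnt5a, Wnt7b, Wnt8a, Wnt10a, Fzd2, Fzd3, Fzd6, Fzd8, Lrp5, Lrp6 and Axin1), and the most upstream start of each gene was used. In the 300 bases around the start (250 before and 50 after) a peak lay at 11 of 15 ligands in AKO and at 13 of 15 in WT. The same was true of 7.84% of 17273 protein-coding starts in AKO and of 14.9% in WT. For the receptors the counts were 2 of 6 in AKO and 2 of 6 in WT, and for the effectors 2 of 5 in AKO and 2 of 5 in WT. H3K4me1 peaks thus covered the start itself at most ligand genes in both libraries, which they did at few genes in general.

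Most member starts were rich in CpG, as in most of the printed sequences. The median GC content of the 300 bases was 72.2% for the members and 56.3% for all starts, and the median ratio of observed to expected CpG was 0.850 for the members and 0.586 for all. Among starts with at least 55% GC and a CpG ratio of at least 0.6, peaks lay at 10 of 12 ligands in AKO and 11 of 12 in WT, against 9.35% of 7217 such starts in AKO and 17.1% in WT. The core letters bound by TCF/LEF factors, CTTTGA on either strand, were found in 4 of the 34 member windows of 300 bases (Fzd1, Lef1, Wnt5b and Wnt11) and in 14.4% of 21044 windows of all genes. The Axin2 window held none.

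The mark around starts was narrower in AKO. Within 2 kb of the start, the 15 ligands had 17.2 kb in AKO and 29.8 kb in WT, a ratio of 0.579, while all starts had a ratio of 0.606. Exactly at the start, 14 of 26 member starts were covered in AKO and 17 in WT, against 6.26% of all starts in AKO and 12.5% in WT. At 1 kb upstream it was 2 member starts in AKO and 7 in WT, against 3.84% of all starts in AKO and 6.62% in WT. At 1 kb downstream it was 5 member starts in AKO and 10 in WT, against 8.66% of all starts in AKO and 14.4% in WT. Fewer starts were covered in AKO at each of these positions among the members and among all genes, and at the start itself the members differed by a smaller factor than all genes did. Sequence within 2 kb of any listed start held 39.0% of the covered length of these ligands in AKO and 40.8% in WT. For the 5 effectors with a listed start it held 5.14% in AKO and 5.24% in WT. That value was set mostly by Tcf7l1 and Tcf7l2, which held most of the effector length and whose mark lay along the genes. The share was 75.2% in AKO and 64.9% in WT at Lef1. It was 51.7% in AKO and 28.6% in WT at Axin2, and 12.1% in AKO and 15.8% in WT at Tcf7.

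**Figure D5:**
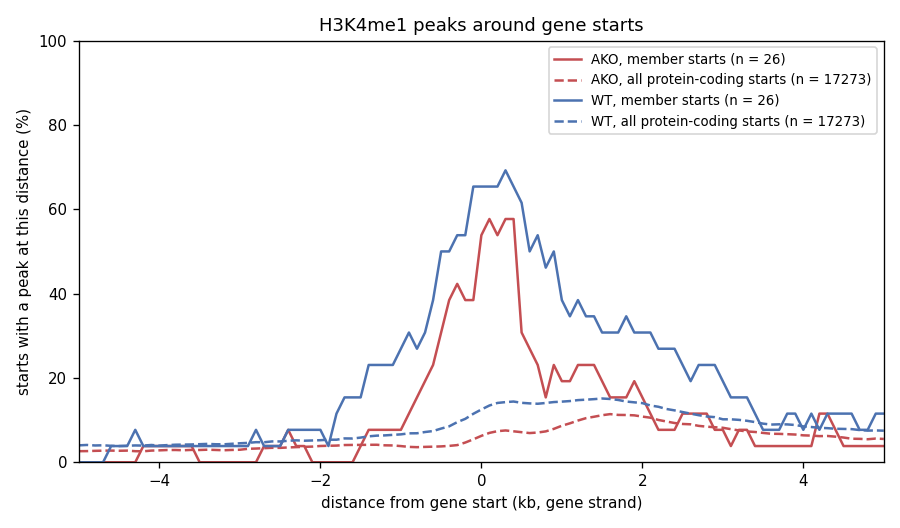
Percent of gene starts that have an H3K4me1 peak at each distance (vertical axis) from 5 kb before to 5 kb after the start (horizontal axis), for 26 member starts (solid) and 17273 protein-coding starts (dashed), in AKO and WT. The member curves are highest close to the start, with 53.8% in AKO and 65.4% in WT at distance 0, while the curves of all starts stay below 20% throughout.

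The other genes of the pathway did not share the uniform direction of the 37. Of 53 listed secretion factors, antagonists, R-spondins, co-receptors, Dishevelled proteins, destruction complex members, coactivators and target genes, 39 had less covered length in AKO, 12 had more and 2 (Porcn and Dkk4) had no peak. That is 76.5% of the 51 with a peak, close to the 78.4% of all genes. Their summed length was 288 kb in AKO and 381 kb in WT, a ratio of 0.755. The median difference was −1.09 kb, again beside −0.176 kb over all genes, most of which have little or no coverage. Over genes with a mean of at least 2 kb it was −1.75 kb, but the list was not limited to such genes. The difference between this list and the 37 was not tested.

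The rule of size called 5 of the 53 lower and 1 higher, against 5.35% of all protein-coding genes lower and 0.227% higher, and 13.6% lower among genes with a mean of at least 2 kb. The number called lower depended on the setting, from 1 with gene bodies alone (2.44% of all genes) to 9 with −log10 q of at least 5 (11.03% of all genes). The 5 were Kremen2, a Dickkopf receptor (2.04 kb in AKO, 6.68 kb in WT), Nkd2, a Dishevelled antagonist (2.99 kb in AKO, 6.21 kb in WT), Ccnd1, the cyclin D1 gene (2.72 kb in AKO, 5.71 kb in WT), Notum, which removes the lipid from Wnt proteins (1.02 kb in AKO, 3.60 kb in WT), and Sfrp5, a secreted Wnt antagonist made by adipocytes (0.698 kb in AKO, 2.81 kb in WT). The gene called higher was Csnk1a1, the casein kinase that primes beta-catenin for destruction, with 2.19 kb in AKO from 5 peaks of at most 17 fragments and no peak in WT. That call depended on the setting too. No listed gene was called higher with gene bodies alone or with 25 kb on each side. Nor was one with fold enrichment of at least 4 or with −log10 q of at least 5. With equal covered length 6 were called higher and 2 lower. The share of all genes called higher was not counted in these settings. The largest losses of length were at Nkd1, another Dishevelled antagonist (21.3 kb in AKO, 32.9 kb in WT), Tle3, a TCF corepressor known to act in adipocytes (12.7 kb in AKO, 21.7 kb in WT), and Ror2, a Wnt5a receptor (28.2 kb in AKO, 36.4 kb in WT). The largest gains were at Ror1, the paralogue of Ror2 (30.4 kb in AKO, 25.4 kb in WT), Lgr4, an R-spondin receptor (8.19 kb in AKO, 5.85 kb in WT), and Csnk1a1. The 2 Ror receptors thus differed in opposite directions. Ror1 gained length with no gain in height, as its highest summit held 25 fragments in AKO and 26 in WT.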

How the data were processed

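H3K4me1 ChIP-seq of 1 AKO and 1 WT library was analysed with 1 shared input. Per the submitters' processing notes, the tools were Bowtie2 2.2.5, MACS2 2.2.1, FastQC 0.11.3 and bcl2fastq, with build mm10. MACS 2.1.1.20160309 stands in the file headers. Per the file headers, peaks were called per library in narrow mode at a q-value of 0.05 from tags of 150 bp with 1 tag kept per position, which can split a broad mark into several peaks. For each peak the authors deposited the summit's pileup signal, scaled to the input's tag number, a fold enrichment (ratio), and p and q as −log10 values. Pileup divided by the scale factor gave whole fragments within 0.01.

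Genes came from RefSeq GRCm38.p6 (mm10), on chromosomes 1 to 19 and X; 6 AKO and 8 WT peaks elsewhere were left out. Covered length was summed over each gene plus flanks of 10 kb, and 20 of the 37 windows hold another protein-coding gene. Peaks overlapping by at least 1 bp were merged into regions. Wilson and Poisson 95% intervals cover counting error only. All 28 members with at least 2 kb in either library, those called by the rule of size and the extremes of each role are given; others are summarised. The covered-length code was tested on simulated data. Members and lists were chosen with earlier results of these data known. Software was Python 3.11.15, numpy 2.4.6, pandas 2.3.3, scipy 1.17.1 and matplotlib 3.10.9.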

Additional observations from a re-analysis of the deposited data

How the results depend on the processing

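No paired analysis was possible because there is 1 library per genotype. All ratios here are AKO to WT, for all members, ligands, receptors and effectors in this order. The ratios of the 3 roles and the ligand starts were added to the alternatives after the data were seen. The summed ratios were 0.533, 0.490, 0.481 and 0.594 with −log10 q of at least 5, against 0.563 over all genes, and 0.621, 0.585, 0.654 and 0.634 when fold enrichment was 4 or more. They were 0.679, 0.646, 0.696 and 0.698 with equal numbers of peaks, and 0.627, 0.591, 0.706 and 0.622 with peaks within 1 kb joined. They were 0.650, 0.623, 0.729 and 0.635 with 25 kb on each side, and 0.628, 0.596, 0.657 and 0.641 with each peak given to its nearest gene. With gene bodies alone the roles had 0.583, 0.657 and 0.649. Over all genes the ratio was 0.710 with fold enrichment of 4 or more, 0.795 with equal numbers of peaks and 0.756 with joined peaks. It was 0.7365 with 25 kb on each side, 0.7405 with the nearest gene and 0.757 with gene bodies alone. When the strongest peaks of both lists were taken up to an equal covered length (50% of the shorter list), the ratios were 0.829, 0.619, 0.704 and 1.17 against 0.978 over all genes, so the effectors reversed, with Tcf7l1 and Tcf7l2 longer in AKO by 4.08 and 4.53 kb, while the ligands did not. In that setting 70.0% of 30 members with a peak had less length in AKO, and 54.1% of all genes. By the rule of size 9 members were lower with −log10 q of at least 5, when 11.03% of all genes were. With equal numbers of peaks 2 (Wnt5a and Axin2) were lower, when 3.91% of all genes were. In the other settings 3 to 5 were lower, beside 2.44% to 7.11% of all genes. Most of all genes have little or no coverage, so these shares are not of genes marked like the members. Only Tcf7 was ever higher, with equal covered length. The cause of these changes was not tested. Ligand starts with a peak numbered 8 to 11 of 15 in AKO and 11 to 14 in WT across settings. Without the 0.1% highest peaks no result listed here changed. Depth limits all weak sites: none with under 10 fragments was called.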

Other observations

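Covered length and number of peaks did not always differ in the same direction. At 4 members, Wnt1, Wnt2, Lrp5 and Tcf7, the AKO library had more peaks than the WT library although it covered less sequence. Wnt1 had 5 peaks in AKO and 3 in WT within the same 3 regions, and Lrp5 had 17 in AKO and 14 in WT. At 20 members AKO had fewer peaks, and at 13 the numbers were equal. Over the genome the AKO to WT ratio of peak numbers was 0.866. The same split over all genes was not counted, so these counts are no result about Wnt genes.

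The windows held 21 regions marked in AKO only, at 13 of the 37 genes, and all were narrow, at most 0.590 kb. The highest, with 24 fragments, lay near the 3′ side of Tcf7 (chromosome 11, 52251889 to 52252363). The next held 20 fragments, 1 near Wnt2 (chromosome 6, 17979296 to 17979590) and 1 inside Wnt5b (chromosome 6, 119477663 to 119478154). Lrp6 had the most, with 4 such regions of 14 to 18 fragments.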
